A study of Ursus arctos with 12 samples.

Results

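The genes described here are 9 regulators of the mitochondrial pathway of apoptosis, taken by symbol from the count table: BCL2, BCL2L1, MCL1, BAX, BAK1, BAD, BCL2L11, CASP9 and XIAP. All 9 of 9 symbols were found among the 30249 genes of the table, and all 9 had the 30 reads over the 12 libraries that the test required, as did 17290 genes in all. In this pathway, proteins of the BCL2 family decide whether the outer mitochondrial membrane is opened. The pro-survival proteins BCL2, BCL2L1 (BCL-XL) and MCL1 hold the pore-forming effectors BAX and BAK1 in check, and BH3-only proteins such as BAD and BCL2L11 (BIM) bind the pro-survival proteins and release the effectors. Once the membrane is open, cytochrome c assembles the apoptosome around APAF1 and CASP9, the initiator caspase, which activates executioner caspases unless XIAP blocks them. In skeletal muscle the pathway has been studied in the wasting that follows disuse, denervation and age.

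The RNA came from the vastus lateralis, a thigh muscle, of 6 free-ranging brown bears (Ursus arctos) that were 2 to 3 years old. Each bear was biopsied under anesthesia during winter hibernation and again in its active period in summer of the same year, which gave 6 winter and 6 summer libraries. The comparison asked how gene expression differs between the hibernating and the active muscle of the same animal. Hibernation and season cannot be told apart in this design.

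Between 16742406 and 32140160 reads per library were counted on genes, with winter libraries at a median of 22101966.5 and summer libraries at 23380174.5. The 10 most abundant genes took 18.6 to 27.4% of the reads of a summer library and 22.1 to 26.7% of a winter library. On the second principal component the winter library of bear 1509 lay at −98.6, with the other 11 libraries between −8.16 and 29.4, so values without this bear are given below. The 7 muscle fibre markers summed to 94920 to 165268 CPM (a gene's reads relative to all gene reads of its library, scaled by TMM) in summer and 105152 to 142066 in winter, which matched the tissue label. The summed level of the 6 fibroblast markers was 1525 to 3674 CPM in summer and 208 to 1145 in winter, and that of the 6 endothelial markers 588 to 921 and 396 to 460. The 6 smooth muscle and pericyte markers stood at 465 to 599 and 266 to 342 CPM, the 5 macrophage markers at 51.4 to 103 and 36.3 to 66.6, and the 6 lymphocyte markers at 8.35 to 14.6 and 5.46 to 11.0. Adipocyte (297 to 1376 and 216 to 459 CPM), Schwann cell (18.3 to 44.8 and 6.84 to 126), satellite cell (12.9 to 23.9 and 5.96 to 27.3) and erythroid markers (0.036 to 2.00 and 0.29 to 2.54) overlapped between the seasons. The muscle fibre, macrophage and lymphocyte sums overlapped as well. Of these lists, 5 of 6 fibroblast, 4 of 6 endothelial, 3 of 6 smooth muscle, 3 of 5 macrophage, 3 of 5 tested lymphocyte, 3 of 4 satellite cell, 2 of 5 Schwann cell and 1 of 5 adipocyte markers were lower in winter, 1 endothelial and 1 fibre marker were higher, 1 fibre marker was lower, and the 2 erythroid markers tested did not pass. None of the markers in the table was at 0 in every library. In a biopsy, fewer cells of a type and less RNA per cell cannot be told apart, and the part of these shifts in the results below was not tested.

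Of the 9 genes, BCL2L11, BCL2 and BAK1 were higher in winter and none was lower at an adjusted p below 0.05, by edgeR's quasi-likelihood test with the bear as a block and Benjamini-Hochberg adjustment over all 17290 genes, the test behind each adjusted p below unless another is named. At an unadjusted p below 0.05, 1 gene, BAX, was lower. DESeq2 and limma voom with the same block called 0 of the 9 lower, while edgeR and DESeq2 without the block each called 1. The share that passed was close to that of the whole transcriptome: 3 of 9 were called, where 40.8% of all genes tested were, 19.6% higher and 21.2% lower. The median log2 fold change (winter over summer) was −0.06 over the 9 genes and −0.0054 over all genes. In 3 of the 9 the direction was the same in all 6 bears, against 37.4% of all genes, and in 1 of the 9 the winter and summer ranges did not overlap, against 17.3%. By role, 1 of 3 pro-survival genes, 1 of 2 effectors and 1 of 2 BH3-only genes rose, and neither CASP9 nor XIAP passed the test.

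**Figure D1:**
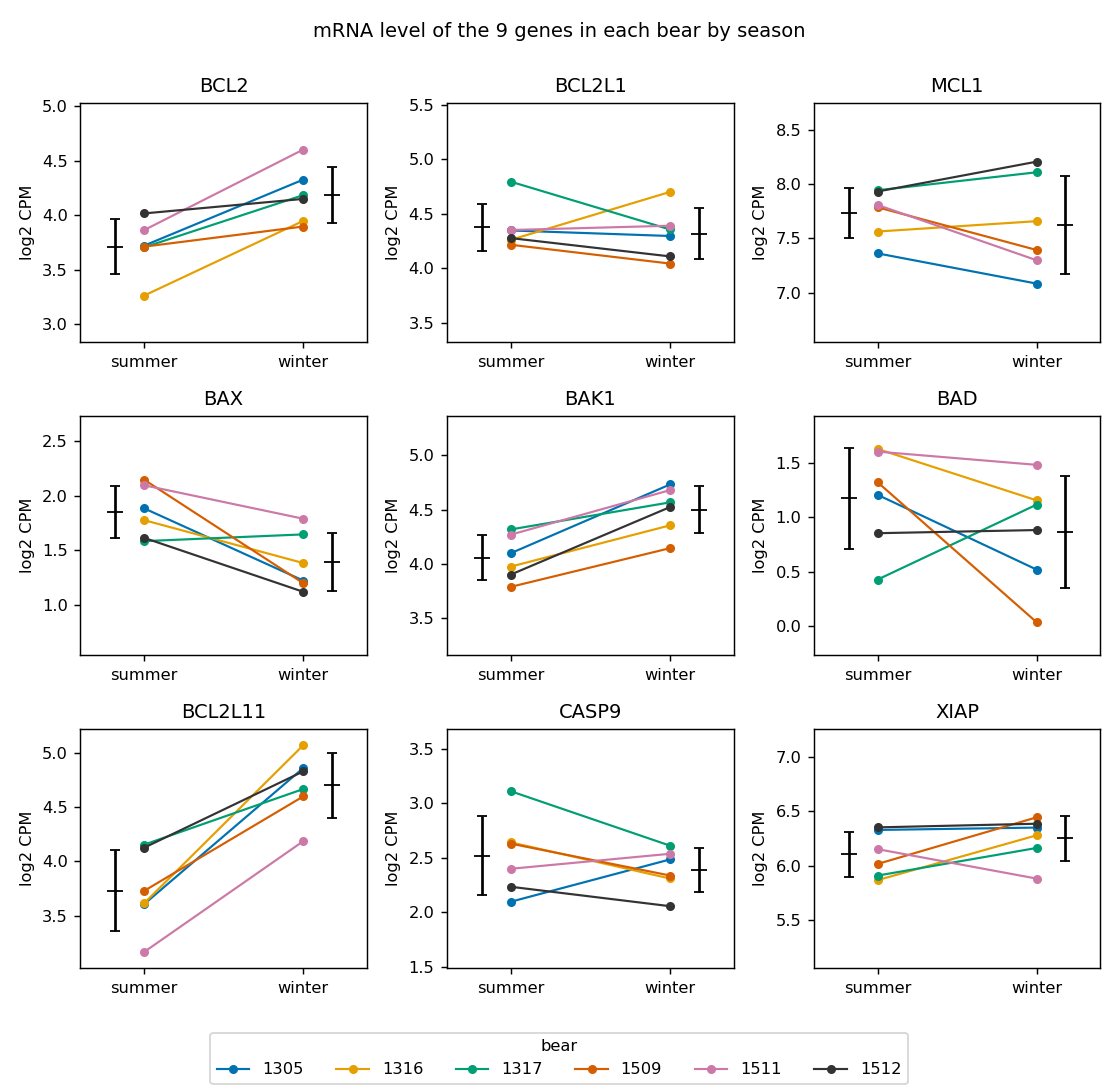
Level of each of the 9 genes (log2 CPM) in summer and winter, with 1 line per bear and the mean ± SD of the 6 libraries of a season beside it. Each panel spans the same range of log2 units, and every line rises in the panels of BCL2, BAK1 and BCL2L11.

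BCL2L11, which encodes the BH3-only activator BIM, showed the largest difference of the 9 genes. Its level was lowest at 8.90 CPM, 12.7 at the median and highest at 17.7 in summer, and 18.1, 26.8 and 33.4 CPM in winter. The lowest winter library, that of bear 1511, was thus above the highest summer library, that of bear 1317, and bear 1511 was also the lowest in summer. In fold terms BCL2L11 was 1.96 times as high in winter (95% interval 1.59 to 2.41), a log2 fold change of 0.97 ± 0.14 (SE, n = 6 bears, edgeR adjusted p = 0.000366). Single bears ran from 0.51 in bear 1317 to 1.45 in bear 1316. The size of this change lay at the 78.2nd percentile of all genes tested. Without bear 1509 the log2 fold change was 1.00 (adjusted p = 0.000625), and over the 14 alternatives the adjusted p was at most 0.00233. The counts, 223 to 869 reads per library, join all transcripts of the gene and do not tell the BIM isoforms apart.

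BCL2, the founding pro-survival member of the family, also rose. It stood at 9.49 CPM in the lowest summer library, 13.0 at the median and 16.1 in the highest, and at 14.8, 17.9 and 24.2 CPM in winter. The seasons overlapped, since the summer level of bear 1512 was above the winter levels of bears 1316 and 1509, but each bear was higher in winter than in its own summer biopsy. The fold was 1.39 (95% interval 1.15 to 1.67), with a log2 fold change of 0.47 ± 0.12 (SE, n = 6 bears, edgeR adjusted p = 0.00975). The rise was 0.13 in bear 1512 and 0.19 in bear 1509, and lay between 0.48 and 0.74 in the other 4 bears. The adjusted p was at most 0.0386 over the alternatives, and 0.00624 without bear 1509.

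BAK1, one of the pair of pore-forming effectors, rose by about as much and more evenly. In summer it was at 13.7, 16.3 and 19.8 CPM (lowest, median and highest library) and in winter at 17.6, 23.2 and 26.4. Again the ranges overlapped and every bear was higher in winter, by 0.25 to 0.63 on the log2 scale. The SD between bears was 0.15, the smallest among the 9 genes. The fold was 1.36 (95% interval 1.16 to 1.59), with a log2 fold change of 0.44 ± 0.10 (SE, n = 6 bears, edgeR adjusted p = 0.00598), at most 0.0375 over the alternatives and 0.00623 without bear 1509.

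BAX, the other effector, was lower in 5 of 6 bears but did not pass the test. Its reads were few, 40 to 105 per library. The summer libraries held 2.91, 3.47 and 4.35 CPM (lowest, median and highest) and the winter libraries 2.08, 2.38 and 3.37. Bear 1317 was the exception, at 2.91 CPM in summer and 3.04 in winter, and bear 1509 differed most, by −0.95 on the log2 scale. The log2 fold change was −0.47 ± 0.18 (SE, n = 6 bears, edgeR adjusted p = 0.0591), a fold of 0.72 (95% interval 0.55 to 0.95, not adjusted for the number of genes). BAX passed without the bear as a block in edgeR (adjusted p = 0.0465) and in DESeq2 (0.0339), with library totals in place of TMM (0.0272) and without bear 1317 (0.0414). Without bear 1509 the log2 fold change was −0.36 (0.134), and the adjusted p ran from 0.0272 to 0.135 over the alternatives.

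**Figure D2:**
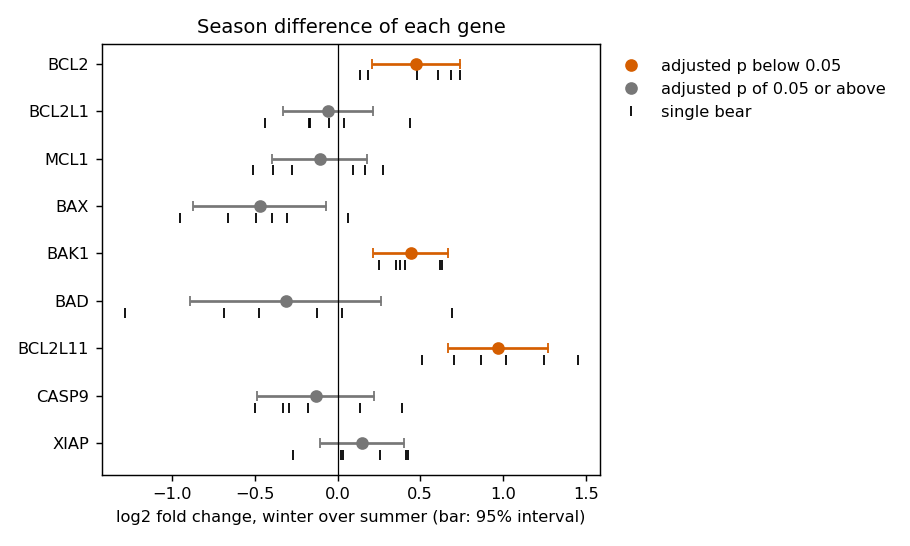
Log2 fold change of winter over summer for each of the 9 genes, as a point with its 95% interval, and the 6 single bears as ticks below it. The intervals of BCL2, BAK1 and BCL2L11 lie above 0 with all 6 ticks, that of BAX lies below 0 with 5 of 6 ticks, and the other 5 intervals cross 0.

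MCL1 and BCL2L1, the other pro-survival genes, did not pass the test. MCL1, a short-lived pro-survival protein, was counted at 2617 to 9065 reads per library. Its level was 165, 222 and 246 CPM in summer (lowest, median and highest) and 136, 185 and 295 in winter, so the winter libraries spread beyond the summer range at both ends. The SD of the log2 level was 0.23 among summer libraries, around a mean of 7.73, and 0.45 among winter libraries, around 7.63 (n = 6 each). Bears 1305, 1509 and 1511 were lower in winter by 0.28 to 0.51 on the log2 scale, and bears 1316, 1317 and 1512 were higher by 0.095 to 0.27. The log2 fold change was −0.11 ± 0.13 (SE, edgeR adjusted p = 0.537), and its 95% interval ran from −0.39 to 0.18, or 0.76 to 1.13 in fold. Without bear 1509 it was −0.039 (adjusted p = 0.84).

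BCL2L1 was at 18.5, 19.8 and 27.7 CPM in summer and 16.4, 20.0 and 25.9 in winter (lowest, median and highest). The summer library of bear 1317 stood above the other 5, which lay between 18.5 and 20.3 CPM, and the winter library of bear 1316 was the highest of its season. The log2 fold change was −0.06 ± 0.12 (SE, n = 6 bears, edgeR adjusted p = 0.732), with an interval of −0.33 to 0.21, and 2 of 6 bears were higher in winter. Without bear 1509 it was −0.025 (adjusted p = 0.895) and without bear 1317 it was 0.019 (0.919). Reads of the pro-survival and the short, pro-apoptotic transcript of BCL2L1 were counted together.

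BAD, the BH3-only protein that growth factor kinases hold inactive by phosphorylation, had the fewest reads of the 9, 17 to 74 per library. Its summer levels were 1.26, 2.32 and 3.01 CPM and its winter levels 0.94, 1.92 and 2.71 (lowest, median and highest). Single bears ran from −1.29 in bear 1509 to 0.69 in bear 1317, the widest spread of the 9 (SD 0.67). The log2 fold change was −0.31 ± 0.26 (SE, n = 6 bears, edgeR adjusted p = 0.359), with a 95% interval of −0.89 to 0.26. Without bear 1509 it was −0.12 (adjusted p = 0.713).

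CASP9, the initiator caspase of the apoptosome, stood at 4.19, 5.65 and 8.55 CPM in summer and 4.07, 5.24 and 6.03 in winter (lowest, median and highest), with 90 to 197 reads per library. It was higher in winter in bears 1305 and 1511 and lower in the other 4. The log2 fold change was −0.13 ± 0.16 (SE, n = 6 bears, edgeR adjusted p = 0.532), with an interval of −0.48 to 0.22, and −0.089 without bear 1509 (0.697). XIAP, the inhibitor that binds CASP9 and the executioner caspases, was at 58.3, 67.9 and 81.7 CPM in summer and 58.9, 79.6 and 87.1 in winter. Of the 6 bears, 5 were higher in winter, although bears 1305 and 1512 by only 0.022 and 0.034 on the log2 scale, and bear 1511 was lower by −0.27. The log2 fold change was 0.15 ± 0.12 (SE, n = 6 bears, edgeR adjusted p = 0.333), with an interval of 0.93 to 1.32 in fold. This interval lay below the estimates of BCL2, BAK1 and BCL2L11 but overlapped the intervals of BCL2 and BAK1. Without bear 1509 the log2 fold change of XIAP was 0.10 (adjusted p = 0.517).

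Ratios of reads within a library, which do not depend on its scaling, were taken as a description with no test. Gene length was not accounted for, so a ratio can be compared between seasons but its size says nothing of the proportion of transcripts. There were 18.6 to 35.3 reads of BAX for every 100 of BCL2 in summer and 11.3 to 17.0 in winter, and the ratio was lower in winter in 6 of 6 bears, on average by a factor of 0.52 (log2 difference −0.94 ± 0.34, SD). The lowest summer ratio, that of bear 1512, lay above the highest winter ratio, that of bear 1317. This ratio covers only BAX of the effectors. No ratio was taken for BAK1, whose log2 fold change of 0.44 was close to the 0.47 of BCL2. Against BCL2L1 and MCL1, BAX was lower in 5 of 6 bears each, with mean log2 differences of −0.41 ± 0.50 and −0.36 ± 0.35 (SD), the exceptions being bear 1317 and bear 1511. BCL2L11 went the other way, from 3.98 to 7.36 reads per 100 of MCL1 in summer to 9.17 to 21.3 in winter, higher in 6 of 6 bears, with a mean log2 difference of 1.08 ± 0.54 (SD). In bears 1317 and 1512 this difference was 0.35 and 0.43, and in the other 4 it was 1.26 to 1.53.

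**Figure D3:**
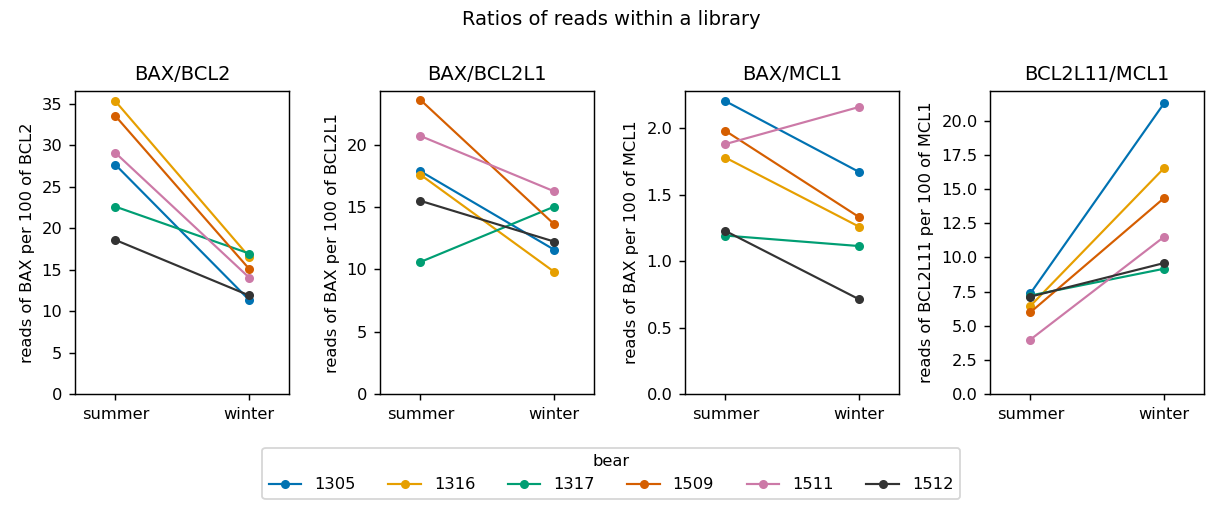
Reads of the first gene per 100 reads of the second in each library, by season, with 1 line per bear and axes from 0. BAX per BCL2 is lower and BCL2L11 per MCL1 higher in winter in all 6 bears, while 1 bear departs from the rest in each of the middle panels.

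The 9 genes were then set among 71 other genes of the pathway, in 11 lists by role that also held the 9. Of the 71, 67 were in the table and 62 had enough reads. In winter 13 of these 62 were higher and 16 lower, and 33 did not pass. The number higher was 5 without bear 1316, 7 without bear 1305 and 8 without bear 1317 or 1512, while 12 to 15 were lower with a bear left out. Their median log2 fold change was −0.01. The share called, 46.8%, was near the 40.8% of all genes tested.

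**Figure D4:**
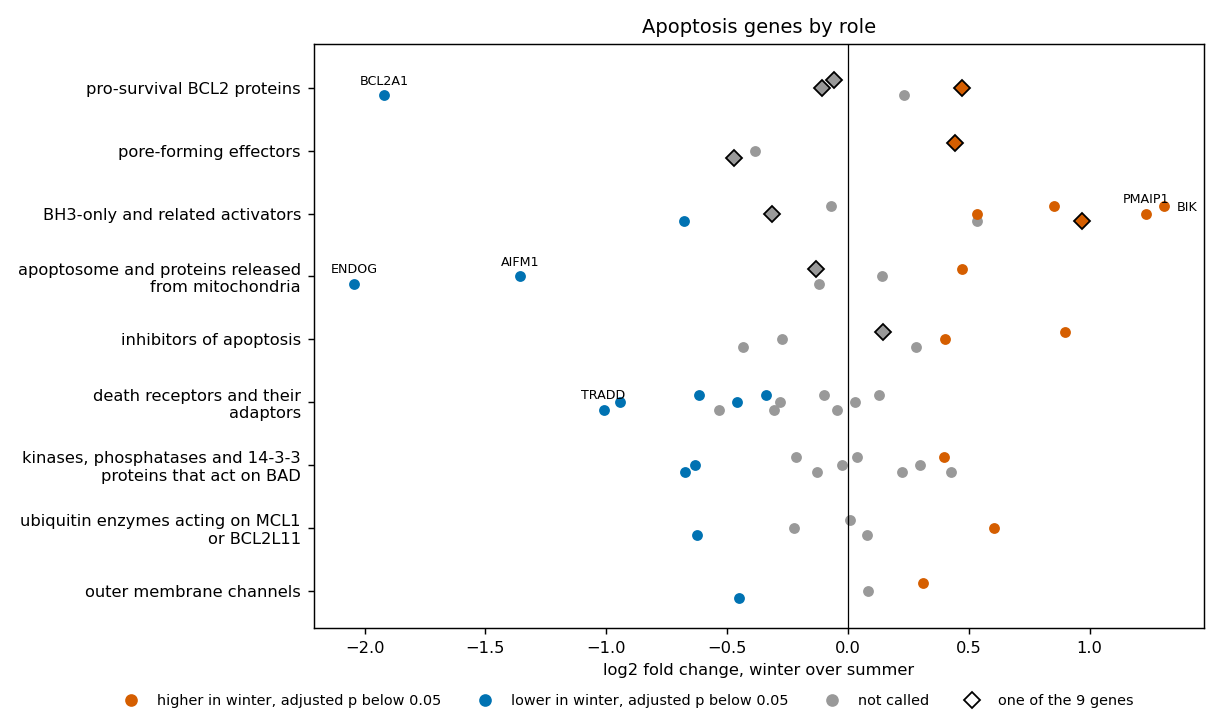
Log2 fold change of winter over summer for the tested genes of 9 of the 11 role lists, 1 row per list, with the 9 genes as outlined diamonds and labels on called genes that changed by more than 1 on the log2 scale. Small vertical offsets only separate points. In the row of death receptors every called gene is lower, and most other rows hold called genes on both sides of 0.

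Among the pro-survival genes, BCL2A1, a family member typical of leukocytes, fell by 1.92 on the log2 scale (SE 0.36, edgeR adjusted p = 0.00194), in 6 of 6 bears, on 4 to 53 reads per library. Of the macrophage and lymphocyte markers, 3 of 5 tested in each list were lower, with summed levels that overlapped between the seasons, and their part in this result was not tested. BCL2L2 (BCL-W) had a log2 fold change of 0.23 (edgeR adjusted p = 0.24), BCL2L10 had fewer than 30 reads, and of the effectors BOK, at 11 to 68 reads, had one of −0.38 (0.526).

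Of the 9 BH3-only and related genes tested, 5 were higher and 1 was lower, BCL2L11 among the former, where 19.6% and 21.2% of all genes tested were. Of the 5 calls, 2 (PMAIP1 and BIK) were lost with a bear left out. Those of BCL2L11 and BNIP3L were kept, and that of BNIP3 was not checked in this way. BNIP3L (NIX), a mitophagy receptor of this group, rose by 0.85 ± 0.10 on the log2 scale (SE, edgeR adjusted p = 0.00011), with no overlap between seasons, and its relative BNIP3 rose by 0.53 (0.00452). PMAIP1 (NOXA), a partner of MCL1, and BIK rose by 1.24 and 1.31 (adjusted p = 0.0324 and 0.0179), each in 6 of 6 bears but on 3 to 25 and 2 to 24 reads per library. The call of PMAIP1 was lost without bear 1305, 1316, 1317 or 1511 (adjusted p 0.0571 to 0.1) and that of BIK without bear 1316 (0.0539). BMF fell by 0.68 (SE 0.17, 0.00924) in 6 of 6 bears. BBC3 (PUMA), at 0.53 (0.419), ran from −1.15 to 2.75 between bears, BID was at −0.07 (0.688), and HRK had fewer than 30 reads.

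Around CASP9, APAF1, the scaffold of the apoptosome, rose by 0.47 ± 0.12 on the log2 scale (SE, edgeR adjusted p = 0.011) in 5 of 6 bears. ENDOG (endonuclease G), a mitochondrial nuclease, fell by 2.04 (SE 0.22, 9.5e-05) and AIFM1, a flavoprotein that also serves the assembly of the respiratory chain, by 1.36 (SE 0.11, 2.4e-05), both with no overlap between seasons. The XIAP antagonists DIABLO and HTRA2 had log2 fold changes of −0.12 (0.411) and 0.14 (0.354). The nuclease DFFB (CAD) fell by 1.67 (SE 0.32, 0.00229), on 6 to 46 reads, and its inhibitor DFFA by 0.70 (SE 0.24, 0.0344), the latter not without bear 1305, 1316, 1509 or 1511 (0.0578 to 0.1).

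Of the 6 inhibitors of apoptosis tested, XIAP among them, 2 were higher and 4 did not pass. The share called, 33.3%, was below the 40.8% of all genes tested, of which 19.6% were higher. BIRC2 (cIAP1) rose by 0.40 (SE 0.13, edgeR adjusted p = 0.0283) and NAIP by 0.90 (SE 0.28, 0.0271), each in 5 of 6 bears. BIRC2 was not called without bear 1305, 1316 or 1512 (0.0734 to 0.0803) or with library totals (0.114), and NAIP, on 8 to 55 reads, not without bear 1305, 1316, 1317 or 1512 (0.0573 to 0.0787) or in DESeq2 with the block (0.0542), while DESeq2 without the block called it (0.0139). NOL3 (ARC), a caspase inhibitor abundant in muscle, was at −0.27 (0.262). BIRC6 was at 0.28 (0.0836) and BIRC5 at −0.43 (0.322).

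In the death receptor pathway, which reaches caspases from the cell surface, 5 of 12 genes were lower and 7 did not pass. The share called, 41.7%, was near the 40.8% of all genes tested, of which 21.2% were lower. TRADD, the adaptor of TNF receptors, fell by 1.01 (SE 0.17, edgeR adjusted p = 0.000894), the receptors TNFRSF21 and TNFRSF1A by 0.94 (SE 0.17, 0.00147) and 0.62 (SE 0.13, 0.00428), and CASP10 by 0.46 (SE 0.16, 0.0422), each in 6 of 6 bears. FAS fell by 0.34 (0.0461), and this call was not checked with a bear left out. The call of CASP10 was lost without bear 1317, 1509, 1511 or 1512 (0.0564 to 0.124). CASP8, the initiator caspase of this pathway, was at −0.31 (0.069) and its decoy CFLAR at 0.03 (0.892).

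Among regulators of cell cycle arrest and stress responses, PPP1R13L (iASPP) rose by 1.83 (SE 0.22, edgeR adjusted p = 0.000143), with no overlap between seasons. It had 23 to 133 reads per library over both seasons. CDKN1A (p21), an inhibitor of cyclin-dependent kinases, rose by 0.70 (SE 0.21, 0.0223) in 5 of 6 bears, but not in edgeR without the bear as a block (0.0556; DESeq2 without it, 0.0309) or without bear 1305, 1316, 1317 or 1512 (0.0514 to 0.0715). MDM2, a ubiquitin ligase, was at 0.11 (0.467).

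Among 10 kinases, phosphatases and binding partners of BAD, 1 was higher and 2 lower. The share called, 30%, was below the 40.8% of all genes tested. YWHAQ, a phosphoserine-binding protein that retains BAD in the cytosol, fell by 0.63 (SE 0.12, edgeR adjusted p = 0.00174) and RPS6KA1, a BAD kinase, by 0.67 (SE 0.20, 0.0224), in 6 of 6 bears each. PRKACA, the catalytic subunit of protein kinase A, rose by 0.40 (SE 0.14, 0.037) in 5 of 6. RPS6KA1 was not called without bear 1305, 1511 or 1512 (0.0516 to 0.0734), nor PRKACA without bear 1305, 1316, 1509 or 1512 (0.0599 to 0.109) or with library totals (0.146). AKT1 was at −0.02 (0.926) and AKT2 at 0.43 (0.0504). Of the ubiquitin enzymes that act on MCL1 or BIM, FBXW7 fell by 0.62 (SE 0.17, 0.0145) in 5 of 6 bears and MARCH5 rose by 0.60 (SE 0.10, 0.00124) in 6 of 6, with HUWE1 at 0.01 (0.954) and USP9X at −0.22 (0.13). Of the outer membrane channels, VDAC1 fell by 0.45 (SE 0.12, 0.014) and VDAC3 rose by 0.31 (SE 0.11, 0.0457), in 6 of 6 bears each, while VDAC2, which holds BAK1 at the membrane, was at 0.08 (0.607). VDAC3 lost its call without any 1 bear (0.0656 to 0.102), with library totals (0.156) and without the filter (0.0797).

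Over the 12 libraries, which fall into 2 seasons, the gene whose log2 level followed BCL2L11 most closely was EXOC1 (Pearson r = 0.975), and for BCL2 it was DOK5 (0.903), for BAK1 CNOT9 (0.917), for BAX MRPL54 (0.939), for BAD SCRN2 (0.974), for MCL1 NR4A2 (0.88), for BCL2L1 ATXN2L (0.864), for CASP9 SREBF2 (0.892) and for XIAP DAAM1 (0.925). Each was the highest r among 10344 candidate genes, and the libraries share season and depth, so these values are a description only.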

How the data were processed

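Total RNA of 12 biopsies was made into stranded poly(A) libraries and sequenced as single reads. The authors aligned the reads to assembly ASM358476v1 with TopHat2 2.1.1 and counted them per gene, taking only reads on the strand opposite to the gene, with featureCounts 1.6.2 (versions per the labels). The deposited counts are whole numbers that were neither normalized nor filtered. The table held 0 rows without a gene name and 0 columns of other samples.

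The same bears were sampled in both seasons by the study's methods, and libraries were paired by the bear number in their titles. Deviations from season means correlated at 0.0903 to 0.344 within a bear. Between different bears the median was −0.0634 and the highest value 0.142, so the ranges overlapped. Counts were scaled by TMM in edgeR 4.0.16 (R 4.3.3), genes under 30 reads were left out, and glmQLFTest was run with bear and season as terms, calling genes at an adjusted p below 0.05. The intervals come from the standard error of this fit. Levels are TMM-scaled CPM, and log2 CPM with a prior count of 2. Ratios of reads had 0.5 read added. On simulated data of 17056 genes for this comparison, the fit called 86% of the 2-fold and 100% of the 4-fold changes, and 5 genes that had none. The changes were placed in 200 genes, none with a low mean count, and no difference between bears was simulated. Recovery in genes with few reads, or of changes under 2-fold, was thus not covered.

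The alternatives were no block, DESeq2 1.42.0, limma 3.58.1 voom, RLE, library totals, 2 other filters, a stricter threshold and each bear left out. Leaving bears out of the ratios was chosen after seeing the data. The genes and lists were chosen with earlier results of these data known. Genes were named as the 9 members, up to 4 other called genes per list by size of change (some are not reported here), and the most correlated gene of each member with at least 1 log2 CPM. FAS, BNIP3 and the genes given as not called were named after their values were seen. 1 gene, YWHAZ, was listed under a LOC number and was paired by gene number with RefSeq's UrsArc2.0 table, and CYCS, BIRC3, TNFRSF10A and TNFRSF10B were not analysed here. The bears were separate animals, each with a single library per season. The replicate spread therefore joins biological variation with that of biopsy, library and counting. Sequencing lanes were not assigned by the labels and were not tested.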

Additional observations from a re-analysis of the deposited data

Results flagged for a closer look

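Of 72 sets of 6 libraries (36 genes in each of 2 seasons), 3 held a library that stood apart from its nearest neighbour by more of the whole spread than Dixon's 95% limit allows, which chance alone gives in about 1 of 20 sets. BCL2L1 was at 4.79 log2 CPM in the summer library of bear 1317 and at 4.22 to 4.35 in the other summer libraries. BIK was at −2.60 log2 CPM in the summer library of bear 1512 and at −1.45 to −1.05 in the others. YWHAQ was at 6.50 log2 CPM in the summer library of bear 1511 and at 5.82 to 5.93 in the others.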

How the results depend on the processing

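BCL2L11, BCL2 and BAK1 were higher at an adjusted p below 0.05 under each of the 14 alternatives and under the stricter threshold (adjusted p below 0.01 and a fold above 1.3 or below 0.77). Over the 9 genes, 121 of 126 alternative values stayed on the same side of the threshold with the same sign. The other 5 were BAX, which passed in 4, and BCL2L1, whose log2 fold change was −0.16 to 0.019 with a bear left out and turned its sign without bear 1317. The number of the 9 genes called lower was therefore 1 instead of 0 in edgeR with no replicate block, in DESeq2 with no replicate block and with library totals, and 0 to 1 with a bear left out. Leaving out the block changed no other call among the 9 genes. Among the other genes chosen by rule it ended the call of CDKN1A in edgeR and gave one to NAIP in DESeq2. Among the 27 other genes chosen by the naming rule, 333 of 378 values kept their call and 45 lost it. With a bear left out, 5 to 12 of the wider genes were higher instead of 13, with 7 without bear 1305, 5 without 1316, 8 without 1317 and 8 without 1512, and 12 to 15 were lower instead of 16. The stricter threshold left 4 higher and 10 lower, and 4440 of all genes called instead of 7055. No scaling moved the median of all genes by over 0.1 on the log2 scale. With a bear left out, the mean log2 difference of the ratio of BAX to BCL2 lay between −1.05 and −0.87, and that of BCL2L11 to MCL1 between 0.99 and 1.22. Depth limits BAX and BAD most, at 40 to 105 and 17 to 74 reads per library.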
